A study of Mus musculus with 20 samples.

Results

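The 41 genes described here encode the proteins of apoptosis, necroptosis and inflammasome signalling, together with the p53 pathway that feeds apoptosis. They were taken by gene symbol from a table of 25308 genes measured by RNA sequencing of the heart apex of 20 mice. Each symbol matched 1 gene, and the list was drawn up with earlier results of these data known. Of the 41, 40 passed the filter on low counts and were among the 14477 genes tested. The exception was Fasl. They fall into death receptor signalling (8 genes), necroptosis (3), inhibitor of apoptosis (IAP) proteins (3), inflammasome and pyroptosis (10), the BCL-2 family (10), apoptotic caspases (2) and the p53 pathway (5).

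Every group shared the DH-LMP2A background, whose plasma cells secrete light chains without heavy chains. The AL group (9 mice) and the LS group (4 mice) were homozygous for λS, a human λ light chain from a patient with AL amyloidosis placed in the mouse κ locus (genotype DH-lambdaS). AL mice had amyloid deposits after 1 intravenous injection of the recombinant λS variable domain, as sonicated fibrils or in soluble form, whereas LS mice were not injected and had no deposits. The Ctrl group (7 mice) had the DH genotype alone and made mouse light chains. AL and LS mice thus differed in the injection as well as in the deposits, and AL and Ctrl mice also in genotype, and these cannot be told apart. Adult mice of both sexes were used in the study, and the age, sex and injected form of each mouse sequenced are not given in the sources used here.

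Cells die by several programmed routes. Death receptors of the TNF family recruit FADD and activate caspase-8, which starts apoptosis. When caspase-8 is inactive, RIPK1 and RIPK3 assemble and RIPK3 phosphorylates MLKL, which breaches the plasma membrane in necroptosis. Inflammasomes join a sensor to the adaptor ASC and caspase-1, which cleaves interleukin precursors and gasdermin D and so causes pyroptosis. At mitochondria, BCL-2 proteins restrain the pore formers BAX and BAK, and p53 raises the transcription of several genes that tip this balance.

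The promoters of the p53 pathway genes and of Bax, the BCL-2 family gene with the lowest false discovery rate (FDR) in AL against Ctrl, were read from RefSeq (GRCm38.p6) from 250 bases before to 50 bases after the gene start. A p53 half-site, the repeated unit of the p53 response element, was found on either strand in 5 of these 6 genes. The 30-base windows are given 5′ to 3′ on the strand of the gene, with the half-site in capitals. They show a half-site in genes that rose against Ctrl (Bax and Trp53) and in genes that did not pass (Mdm2, Cdkn1a and Ccng1).
Bax, chr7:45467080-45467109 (minus strand): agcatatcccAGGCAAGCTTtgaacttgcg
Trp53, chr11:69580274-69580303 (plus strand): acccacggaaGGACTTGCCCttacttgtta
Mdm2, chr10:117710925-117710954 (minus strand): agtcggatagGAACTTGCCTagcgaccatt
Cdkn1a, chr17:29090918-29090947 (plus strand): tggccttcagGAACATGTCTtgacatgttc
Ccng1, chr11:40755452-40755481 (minus strand): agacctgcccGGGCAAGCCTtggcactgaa
Cdkn1a held another half-site upstream of the one shown. No half-site was found in this window of Phlda3. Of the 37 members with a promoter in the RefSeq table, 9 held a half-site (24.3%), against 9.55% of the 27025 genes in the table. Of these 9, 5 are the genes shown above, and the others were Fasl, Birc2, Nlrp3 and Pycard. A gene was counted once if any of its promoters held the motif. The γ-interferon activation site TTCNNNGAA was held by 4 of the 37 (10.8%), against 9.55% of all genes in the table. An interferon-stimulated response element core (GAAA, any 2 bases, GAAA) was held by 1, Ripk1 (2.7%), against 3.99%, and an NF-κB-like motif (GGGA, any 4 bases, CC) by 9 (24.3%), against 22.9%. These matches describe letters only, and the members were not sampled at random from all genes.

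Total counts per mouse were 43993277 to 62668146 in the first sequencing run (7 AL, 4 LS and 4 Ctrl mice) and 7867642 to 11794615 in the second run (AL8, AL9, Ctrl5, Ctrl6 and Ctrl7). On the scale of the levels given here (CPM, counts scaled to a common library size with TMM factors), 3 counts came to 0.0474 CPM in AL1, which had the highest total, and to 0.356 CPM in AL8, which had the lowest. These levels were not adjusted for the run, and LS mice were sequenced in the first run only. The 8 cardiomyocyte markers (Myh6, Tnnt2 and others) summed to 44790 to 74089 CPM, so heart muscle was present in every library. The 8 hepatocyte markers summed to 0.861 to 36.7 CPM in AL, 5.95 to 178 CPM in LS and 0.896 to 298 CPM in Ctrl mice. Ctrl mice were at 39.7 to 298 CPM in the first run and at 0.896 to 1.69 CPM in the second. All 8 markers were called lower in AL than in Ctrl, and 6 lower than in LS, beside 3.71% and 3.03% of all genes. AL8 and AL9 also stood apart from the other AL mice. Their neutrophil marker sums were 36.3 and 40.2 CPM against 4.20 to 12.6 CPM in AL1 to AL7, and AL8 had the lowest and AL9 the highest macrophage marker sum of the group (195 and 748 CPM).

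Levels of the members were compared per kilobase of exon, with all annotated exons of a gene counted. This length, 12.742 kilobases for Gsdme, can exceed that of a single transcript. The median over the 20 mice ranged from 306.9 CPM per kilobase for Ccng1, a p53 target that encodes cyclin G1, to 0.02715 for Gsdme. Ccng1 was followed by Bnip3, a mitochondrial BCL-2 relative induced by hypoxia (98.02), and Mcl1, an anti-apoptotic BCL-2 protein (56.02). Next came Cdkn1a at 12.02, the receptor gene Tnfrsf1a at 11.42 and the survival gene Bcl2l1 at 11.33. The necroptosis genes lay close together, with Ripk1 at 1.292, Mlkl at 1.196 and Ripk3 at 1.09. Toward the bottom of the order were Aim2 at 0.419, Il18 at 0.3743, Tnfrsf10b at 0.3359, Bid at 0.2374, Il1b at 0.2204, Pmaip1 at 0.2 and Nlrp3 at 0.1377, with Fasl at 0.04627 just above Gsdme.

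**Figure D1:**
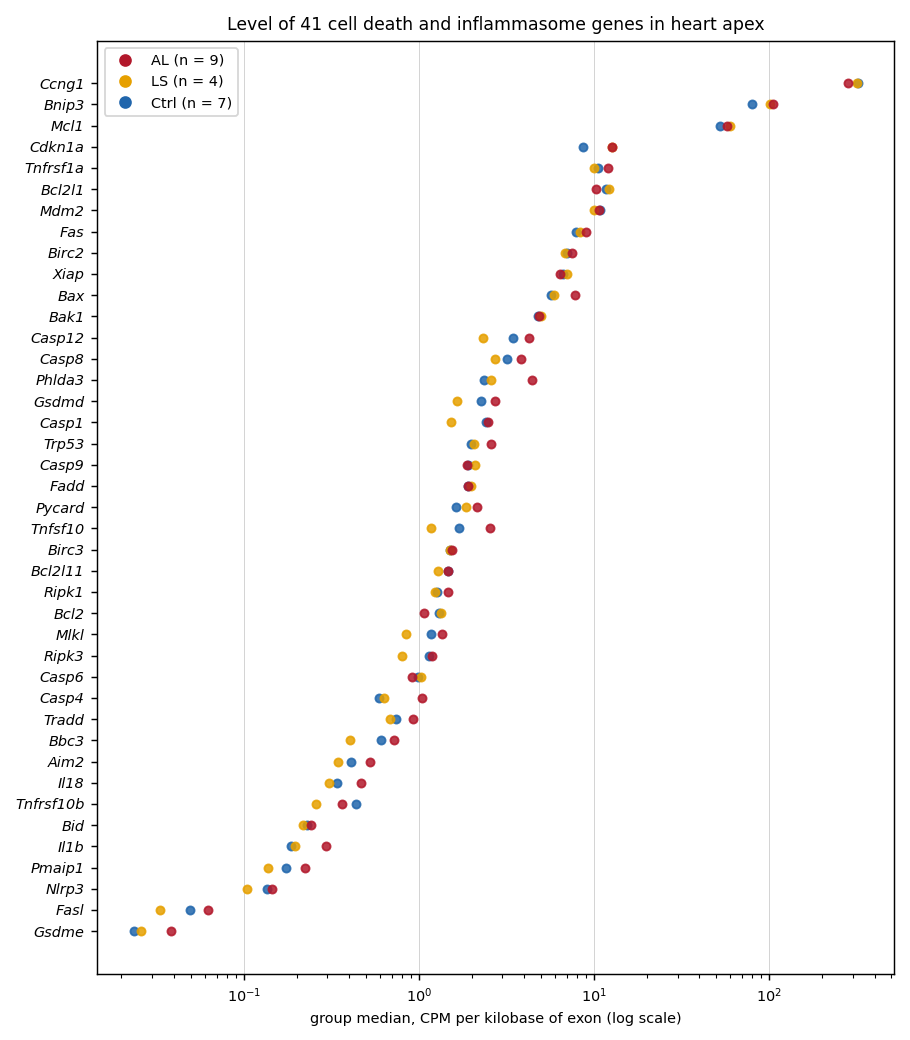
Group medians of the 41 genes in CPM per kilobase of exon, on a log axis, ordered by the median over all mice, with AL in red (n = 9), LS in yellow (n = 4) and Ctrl in blue (n = 7). The order runs from Ccng1 at 306.9 to Gsdme at 0.02715 CPM per kilobase, and the 3 groups lie close together for most genes.

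In AL against Ctrl hearts, 10 of the 40 members passed the test (edgeR quasi-likelihood test with the run as a term, FDR under 0.05). The 9 that rose were Casp8, Aim2, Pycard, Casp4, Gsdmd, Gsdme, Bax, Trp53 and Phlda3, and the one that fell was Xiap. Over all genes tested, 10.7% rose and 15.4% fell in this comparison. Of the 10 inflammasome and pyroptosis genes 5 rose, as did 2 of the 5 p53 pathway genes and 1 gene each of the death receptor and BCL-2 groups. Only 3 members, Casp4, Gsdme and Phlda3, also reached an absolute log2FC of 0.58 (called), against 4.1% of all genes called higher and 3.71% called lower. The median log2FC of the 40 members was 0.19, beside 0.01 for all genes tested, and 0.42 in the inflammasome and pyroptosis group, 0.37 in the p53 pathway, 0.28 in death receptor signalling and 0.14 in the BCL-2 family.

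In AL against LS hearts, 9 members passed the test, and each of them rose, against 9.78% of all genes that rose and 13.6% that fell. They were Tnfsf10, Casp8, Ripk3, Mlkl, Casp4, Casp12, Gsdmd, Bax and Phlda3. Of these, 7 were called (all except Gsdmd and Bax), against 5.86% of all genes called higher and 3.03% called lower. The median log2FC of the members was 0.29, beside 0.01 for all genes, and 0.65 for the 3 necroptosis genes, 0.56 in the inflammasome and pyroptosis group and 0.46 in death receptor signalling. AL mice enter both comparisons, and the values are therefore given side by side below. Tissue was taken whole, so that fewer cells of a type and less RNA per cell cannot be told apart for any of these genes.

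In LS against Ctrl hearts, no member passed the test, and none did so with DESeq2. The lowest member FDR was 0.755 (Casp12, log2FC -0.55). An unadjusted p under 0.05 was seen for 3 members, Casp12, Ripk3 (log2FC -0.47) and Casp1 (log2FC -0.66), all at lower values in LS. This is 3 of 40, where 3.43% of all genes were lower in LS at that p. At FDR under 0.05, 0.00691% of all genes were higher and 0.0138% lower in LS, with or without the fold threshold. The median log2FC was -0.07 over the members and -0.41 over the 3 necroptosis genes.

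**Figure D2:**
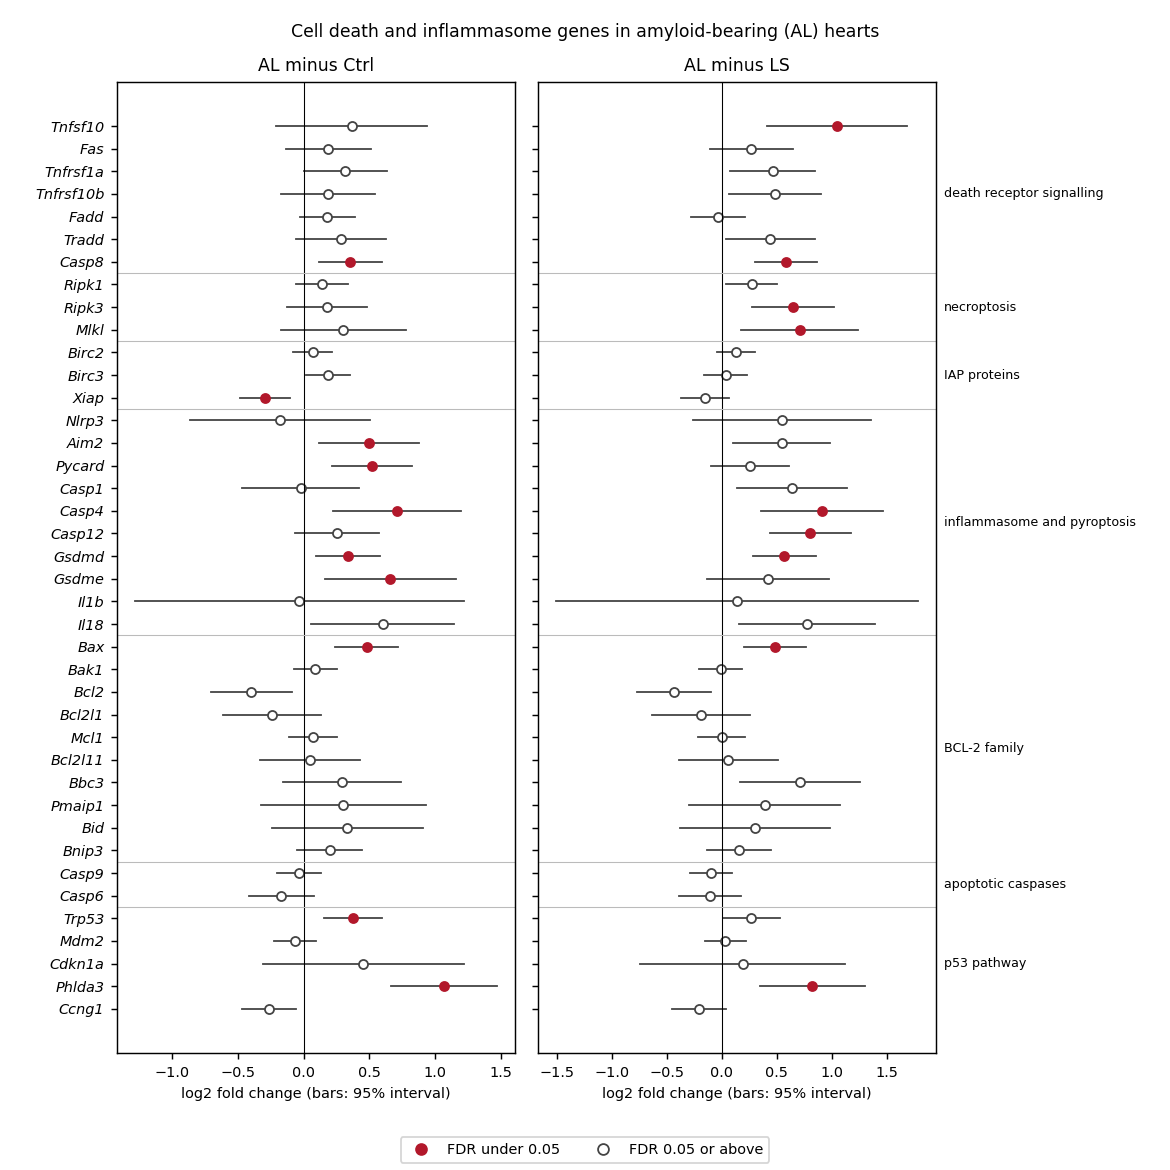
Log2 fold change of the 40 tested genes in AL minus Ctrl (left) and AL minus LS (right), with bars for the 95% interval, grouped by pathway. Filled red points passed FDR under 0.05, which 10 genes did on the left and 9 on the right, and Xiap is the filled point below 0.

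The counts changed when single libraries were left out, and when the libraries with the most liver transcripts were left out together. In AL against Ctrl the 10 members became 5 without Ctrl4 and 6 without Ctrl2 or Ctrl3, and the 3 called became 1 without AL1, Ctrl1 or Ctrl3. In AL against LS the 9 became 14 without AL9 and 5 without LS2, and the 7 called became 11 without AL9, 4 without LS1 and 3 without LS2. Without AL8 the counts were 10 and 12 at any fold. With the 5 mice of highest hepatocyte marker sums left out (Ctrl1, Ctrl3, Ctrl4, LS1 and LS3), 2 members passed against Ctrl, Bax (log2FC 0.63) and Phlda3 (1.29), and 2 against LS, Casp12 (0.71) and Gsdmd (0.65). This setting was chosen after the data were seen. It left Ctrl2, Ctrl5, Ctrl6, Ctrl7, LS2 and LS4 beside the AL mice. The parts of group size and of liver transcripts in the lower counts were not tested. The share of all genes that passed was not computed for the settings of this paragraph.

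Within death receptor signalling, the ligand TRAIL (Tnfsf10) and the initiator caspase-8 (Casp8) were the members that moved. Tnfsf10 was at 7.06, 13.4 and 18.6 CPM in AL mice (lowest, median and highest), at 3.97, 5.45, 7.42 and 6.84 CPM in LS1 to LS4, and at 5.82, 8.90 and 22.1 CPM in Ctrl mice. All AL mice but AL9 were above every LS mouse, whereas the Ctrl mice spanned the AL range. Tnfsf10 rose against LS, with a log2FC of 1.05 (SE 0.304, FDR 0.0183), and was 0.37 (SE 0.274, FDR 0.342) against Ctrl. Without LS1 or LS2 the FDR against LS was above 0.05, at most 0.0713.

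Casp8 was at 9.09, 11.1 and 15.1 CPM in AL, at 8.36, 6.98, 7.62 and 8.07 CPM in LS1 to LS4, and at 7.32, 9.25 and 10.2 CPM in Ctrl mice. The AL and LS mice did not overlap, and 6 of 9 AL mice were above every Ctrl mouse. The log2FC was 0.59 against LS (SE 0.134, FDR 0.00470) and 0.35 against Ctrl (SE 0.114, FDR 0.0281). Against LS the FDR was at most 0.0239 with any 1 mouse left out, and against Ctrl it reached 0.0788 and passed 0.05 without Ctrl2, Ctrl3 or Ctrl4.

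The receptors did not pass the test. Tnfrsf1a, the main receptor of TNF, had a mean of 35.5 ± 10.3 CPM in AL (SD, n = 9), 25.5 ± 3.80 in LS (n = 4) and 28.5 ± 4.94 in Ctrl mice (n = 7), with a log2FC of 0.46 against LS (FDR 0.0737) and 0.32 against Ctrl (FDR 0.129). Tnfrsf10b, the mouse TRAIL receptor, was at 1.62 to 3.32 CPM in AL and 1.26 to 1.56 CPM in LS mice without overlap, and its FDR against LS was 0.0842. Ctrl mice reached 3.39 CPM. Fas was at 10.4 to 24.9, 14.3 to 18.7 and 7.69 to 21.2 CPM in AL, LS and Ctrl mice. The adaptors Fadd (log2FC 0.18 against Ctrl) and Tradd (0.28) had an FDR of 0.189 and 0.206 there. Fas ligand (Fasl), made by cytotoxic lymphocytes, had at most 8 counts in a library and 0 to 0.398 CPM, and 10 T and NK cell markers summed to 0.770 to 4.42 CPM over all mice.

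**Figure D3:**
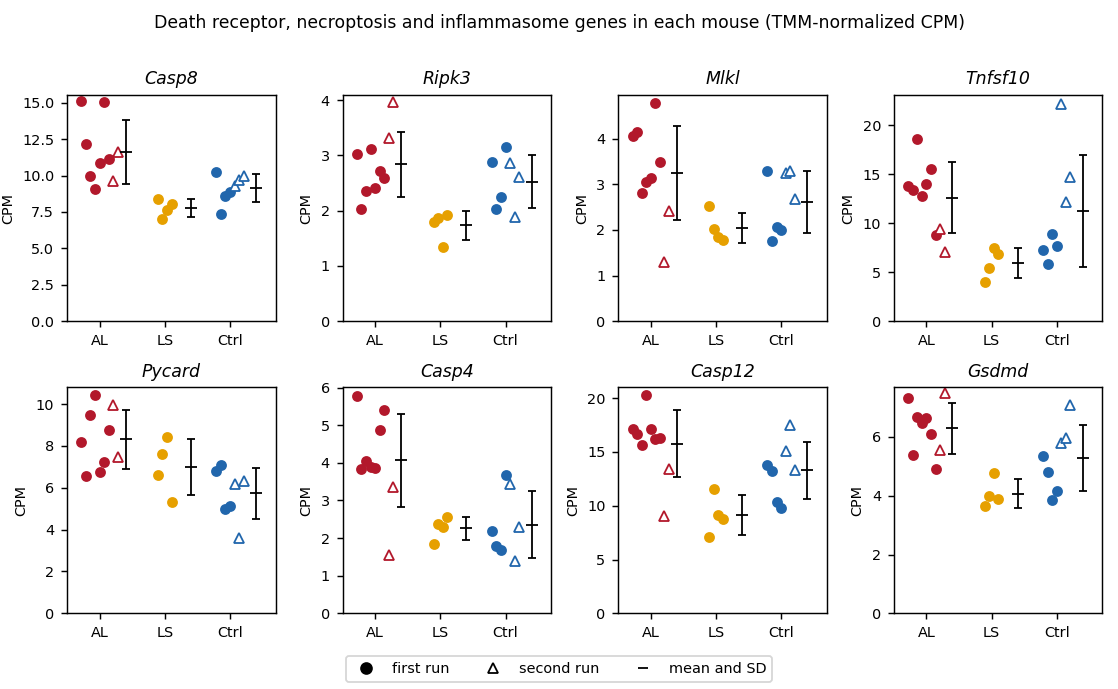
CPM of 8 genes in each mouse by group, filled circles for the first run and open triangles for the second, with the group mean and SD beside them. Casp8, Ripk3 and Gsdmd of all 9 AL mice lie above the 4 LS mice, while in Mlkl, Casp4 and Casp12 the 2 AL mice of the second run are the lowest of the AL group.

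The necroptosis kinase Ripk3 and its substrate Mlkl, the executioner of the pathway, rose against LS and did not pass the test against Ctrl. Ripk3 was at 2.03, 2.71 and 3.96 CPM in AL, at 1.80, 1.87, 1.34 and 1.93 CPM in LS1 to LS4, and at 1.89, 2.61 and 3.15 CPM in Ctrl mice. Every AL mouse was above every LS mouse, and only 2 of 9 were above every Ctrl mouse. Its log2FC was 0.65 against LS (SE 0.178, FDR 0.0140) and 0.18 against Ctrl (SE 0.146, FDR 0.392). Without LS3 the FDR against LS was 0.0608.

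Mlkl was at 1.304, 3.14 and 4.78 CPM in AL, at 2.53, 2.02, 1.85 and 1.77 CPM in LS1 to LS4, and at 1.75, 2.69 and 3.30 CPM in Ctrl mice. The 7 AL mice of the first run were above every LS mouse, and AL8 was below them all. The log2FC of 0.71 against LS (SE 0.253) lay just inside the threshold (FDR 0.0487). It no longer passed (FDR up to 0.134) without AL1, AL2, AL4, AL5, AL6, AL7, any LS mouse, Ctrl1, Ctrl3 or Ctrl7. Against Ctrl it was 0.30 (SE 0.226, FDR 0.342). Ripk1, the kinase upstream of both death routes, had means of 12.1 ± 1.73, 10.2 ± 0.796 and 10.9 ± 1.29 CPM (SD) in AL, LS and Ctrl mice and an FDR of 0.0778 against LS.

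Of the IAP proteins, which bind caspases or receptor complexes and block death signals, Xiap fell against Ctrl. Its levels were 25.2, 60.6 and 73.9 CPM in AL, 67.7, 64.7, 63.7 and 70.8 CPM in LS1 to LS4, and 44.8, 62.8 and 76.4 CPM in Ctrl mice. The AL and Ctrl mice overlapped widely, and AL8 and AL9 (36.7 and 25.2 CPM) were the 2 AL mice below every Ctrl mouse. The log2FC was -0.29 (SE 0.0914, FDR 0.0236) against Ctrl and -0.15 (SE 0.105, FDR 0.309) against LS. Without AL9 or Ctrl4 the FDR against Ctrl was above 0.05 (at most 0.0559), and in the first run alone the log2FC was -0.14 (FDR 0.145). Birc2 and Birc3, ubiquitin ligases of the TNF receptor complex, had a log2FC of 0.07 and 0.19 against Ctrl (FDR 0.506 and 0.0933).

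The inflammasome and pyroptosis group had the most members that rose. Casp4 encodes caspase-11, which senses bacterial lipopolysaccharide in the cytosol and cleaves gasdermin D. It was at 1.54, 3.88 and 5.79 CPM in AL, at 1.84, 2.38, 2.28 and 2.56 CPM in LS1 to LS4, and at 1.39, 2.20 and 3.68 CPM in Ctrl mice. All 7 AL mice of the first run were above every LS and every Ctrl mouse, AL9 (3.36 CPM) was above the LS mice, and AL8 was below them. The log2FC was 0.91 against LS (SE 0.265, FDR 0.0189) and 0.71 against Ctrl (SE 0.233, FDR 0.0310). Leaving out AL1, AL7, Ctrl1, Ctrl2 or Ctrl3 took the FDR against Ctrl above 0.05 (up to 0.0926), and leaving out LS1 took that against LS to 0.0660.

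Casp12, a caspase of the endoplasmic reticulum that lies beside Casp1 and Casp4 on chromosome 9 (GRCm38, 5298517 to 5373032 for the 3 genes, all on the plus strand), rose against LS. It was at 9.01, 16.3 and 20.3 CPM in AL, at 7.09, 11.5, 9.13 and 8.73 CPM in LS1 to LS4, and at 9.79, 13.3 and 17.5 CPM in Ctrl mice. AL8 was the only AL mouse within the LS range. The log2FC was 0.81 against LS (SE 0.177, FDR 0.00377, at most 0.0196 with any 1 mouse left out) and 0.26 against Ctrl (SE 0.153, FDR 0.230). On ComBat-seq counts Casp12 did not pass against LS (FDR 0.0502). Casp1, the caspase that matures the interleukins, was at 1.42, 3.70 and 4.70 CPM in AL, at 1.75, 2.36, 2.79 and 2.22 CPM in LS1 to LS4, and at 2.47, 3.60 and 4.72 CPM in Ctrl mice, with an FDR of 0.0578 against LS (log2FC 0.64) and 0.956 against Ctrl (log2FC -0.02).

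Gsdmd encodes gasdermin D, the pore former of pyroptosis. It was at 4.91, 6.48 and 7.49 CPM in AL, at 3.64, 3.997, 4.77 and 3.87 CPM in LS1 to LS4, and at 3.84, 5.35 and 7.07 CPM in Ctrl mice. The AL and LS mice did not overlap, while 2 of 9 AL mice exceeded every Ctrl mouse. It rose against LS, with a log2FC of 0.57 (SE 0.136, FDR 0.00613, at most 0.0284 with any 1 mouse left out), and against Ctrl, with 0.34 (SE 0.116, FDR 0.0392). Against Ctrl it no longer passed (FDR up to 0.114) without AL1, AL3, AL4, AL5, AL6, AL9 or any of Ctrl2 to Ctrl5. On ComBat-seq counts Gsdmd passed in neither comparison (FDR 0.117 against LS).

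Pycard, which encodes the adaptor ASC, rose against Ctrl. Its levels were 6.58, 8.17 and 10.5 CPM in AL, 6.59, 7.59, 8.41 and 5.32 CPM in LS1 to LS4, and 3.59, 6.20 and 7.09 CPM in Ctrl mice. Of the 9 AL mice, 7 were above every Ctrl mouse, and the LS mice overlapped both groups. The log2FC was 0.52 against Ctrl (SE 0.146, FDR 0.0135, at most 0.0360 with any 1 mouse left out) and 0.26 against LS (SE 0.171, FDR 0.280). Against Ctrl Pycard did not pass on ComBat-seq counts or with a replicate block. The same held without the 5 mice of highest hepatocyte marker sums (FDR at most 0.150 over all settings).

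Aim2, the sensor of cytosolic DNA, was at 1.38, 1.84 and 2.37 CPM in AL, at 1.04, 1.09, 1.32 and 1.43 CPM in LS1 to LS4, and at 0.793, 1.43 and 2.09 CPM in Ctrl mice. Its log2FC was 0.50 against Ctrl (SE 0.181, FDR 0.0483) and 0.55 against LS (SE 0.210, FDR 0.0651). The first of these no longer passed (FDR up to 0.134) without AL1 to AL4, AL6, AL8, any LS mouse, Ctrl2 to Ctrl5 or Ctrl7, each left out in turn.

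Gsdme, the gasdermin cut by caspase-3, was the lowest member per kilobase of annotated exon. In CPM, Fasl had a lower median over all mice (0.0896 CPM). Gsdme passed the test against Ctrl only. It was at 0.338, 0.487 and 0.553 CPM in AL, at 0.331, 0.442, 0.326 and 0.289 CPM in LS1 to LS4, and at 0.0984, 0.299 and 0.418 CPM in Ctrl mice, where the values of the second run rest on 3 or fewer counts. Of the AL mice, 6 of 9 were above every Ctrl mouse, although AL5 (0.4185 CPM) was almost level with Ctrl2 (0.4184 CPM). The FDR against Ctrl was 0.0476 (log2FC 0.66, SE 0.239). It passed 0.05 (up to 0.143) when AL1, AL2, AL4, AL5, AL6, AL8, AL9, any LS mouse, Ctrl1, Ctrl3, Ctrl4, Ctrl5 or Ctrl7 was left out. The log2FC against LS was 0.42 (SE 0.266, FDR 0.259).

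The cytokines and the sensor Nlrp3 did not pass the test. Il18 was at 0.237, 0.481 and 0.709 CPM in AL, at 0.449, 0.189, 0.346 and 0.289 CPM in LS1 to LS4, and at 0.154, 0.349 and 0.407 CPM in Ctrl mice, with a log2FC of 0.78 against LS (FDR 0.0649) and 0.60 against Ctrl (FDR 0.0943). Il1b was at 3.18 CPM in AL9, 2.79 CPM in Ctrl4, 2.61 CPM in AL8 and 1.19 CPM in LS4, and at 0.822 CPM or less in the other mice. AL9, AL8 and Ctrl4 also had the 3 highest sums of the neutrophil markers (40.2, 36.3 and 22.2 CPM), whose part in the Il1b level was not tested. Nlrp3 was at 0.119 to 0.947 CPM in AL, 0.295 to 0.790 CPM in LS and 0.197 to 1.18 CPM in Ctrl mice.

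In the BCL-2 family, Bax, the pore former of the outer mitochondrial membrane, rose in both comparisons. It was at 10.1, 12.2 and 16.4 CPM in AL, at 9.26, 8.71, 9.76 and 9.26 CPM in LS1 to LS4, and at 7.19, 8.999 and 11.3 CPM in Ctrl mice. Every AL mouse was above every LS mouse, and 6 of 9 were above every Ctrl mouse. The log2FC was 0.48 against Ctrl (SE 0.114, FDR 0.00517) and 0.49 against LS (SE 0.136, FDR 0.0152), a rise of 1.39-fold and 1.40-fold. The FDR against Ctrl was at most 0.0131 with any 1 mouse left out, and that against LS was 0.0510 without LS2. Bax passed in neither comparison on ComBat-seq counts, and did not pass against Ctrl with a replicate block. Without the 5 mice of highest hepatocyte marker sums it did not pass against LS. Over all settings the FDR was at most 0.139 against Ctrl and 0.226 against LS.

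The other family members did not pass. Bak1, the partner of Bax in pore formation, had means of 12.4 ± 1.96, 12.0 ± 0.615 and 11.9 ± 1.27 CPM (SD) in AL, LS and Ctrl mice, a log2FC of 0.09 against Ctrl with a 95% interval from -0.07 to 0.25. The survival gene Bcl2 was at 5.93, 9.77 and 12.2 CPM in AL, at 12.9, 16.3, 11.6 and 11.5 CPM in LS1 to LS4, and at 8.97, 12.0 and 13.5 CPM in Ctrl mice. Its log2FC of -0.40 against Ctrl (FDR 0.0511) and -0.43 against LS (FDR 0.0578) lay just outside the threshold. The survival genes Bcl2l1 and Mcl1 had a log2FC of -0.24 and 0.07 against Ctrl (FDR 0.331 and 0.584).

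Among the BH3-only genes, which sense death signals upstream of Bax, Bbc3 (PUMA) was at 0.996 to 2.84 CPM in AL, 0.652 to 1.19 CPM in LS and 0.697 to 2.46 CPM in Ctrl mice, with an FDR of 0.0543 against LS (log2FC 0.71). Pmaip1 (NOXA), Bid and Bcl2l11 (BIM) had an FDR of 0.487, 0.390 and 0.869 against Ctrl. Bnip3 was at 145 to 339, 205 to 257 and 119 to 243 CPM in AL, LS and Ctrl mice (FDR 0.228 against Ctrl). The apoptotic caspases Casp9, the initiator on the apoptosome, and Casp6, an effector, had a log2FC of -0.03 and -0.17 against Ctrl (FDR 0.803 and 0.302), and the 95% interval for Casp9 ran from -0.20 to 0.13.

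In the p53 pathway, Phlda3, a p53 target that holds back the kinase AKT, had the largest log2FC against Ctrl of the 40 members. It was at 3.79, 6.93 and 14.2 CPM in AL, at 3.99, 3.58, 4.99 and 4.03 CPM in LS1 to LS4, and at 2.99, 3.69 and 4.63 CPM in Ctrl mice. All AL mice except AL8 lay above every LS and every Ctrl mouse. The gene lies on chromosome 1 (GRCm38, 135766119 to 135769136, plus strand). It rose 2.09-fold against Ctrl (log2FC 1.07, SE 0.192, FDR 0.000828) and 1.77-fold against LS (log2FC 0.82, SE 0.229, FDR 0.0148). Against Ctrl the FDR stayed at or below 0.0237 in all 29 alternative settings, and against LS it was 0.0539 without LS2.

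Trp53, which encodes p53, was at 8.52, 10.5 and 15.7 CPM in AL, at 8.76, 7.55, 9.66 and 7.99 CPM in LS1 to LS4, and at 7.47, 8.06 and 12.7 CPM in Ctrl mice. Over both runs AL8 and AL9 were the AL mice above every Ctrl mouse, and within the first run 5 of 7 AL mice were. It rose against Ctrl (log2FC 0.37, SE 0.105, FDR 0.0145, at most 0.0292 with any 1 mouse left out), and was 0.27 against LS (SE 0.125, FDR 0.122). Against Ctrl it did not pass without the run term, on ComBat-seq counts or with a replicate block. The same held without the 5 mice of highest hepatocyte marker sums (FDR at most 0.253 over all settings).

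The other 3 genes of the p53 pathway did not pass the test. Cdkn1a, the cell cycle inhibitor p21, was at 13.4, 44.9 and 89.0 CPM in AL, at 57.0, 46.03, 44.1 and 36.1 CPM in LS1 to LS4, and at 7.84, 30.8 and 67.8 CPM in Ctrl mice. Ctrl mice were at 30.8 to 67.8 CPM in the first run and at 7.84 to 15.1 CPM in the second. AL mice spread widely in the first run (13.4 to 89.0 CPM) and were at 15.2 and 62.7 CPM in the second. The FDR of Cdkn1a was 0.380 against Ctrl and 0.793 against LS. Mdm2, the ubiquitin ligase that degrades p53, was at 46.6 to 61.3, 47.5 to 57.7 and 50.5 to 65.9 CPM in AL, LS and Ctrl mice, with a log2FC of -0.07 against Ctrl (95% interval -0.23 to 0.09). Ccng1 had means of 946 ± 239, 1185 ± 176 and 1030.1 ± 227 CPM (SD), and a log2FC of -0.26 against Ctrl (FDR 0.0544). In the first run, which held all LS mice, its means were 1040, 1185 and 1206 CPM in AL, LS and Ctrl mice. In the second run they were 615 and 796 CPM in AL and Ctrl mice.

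**Figure D4:**
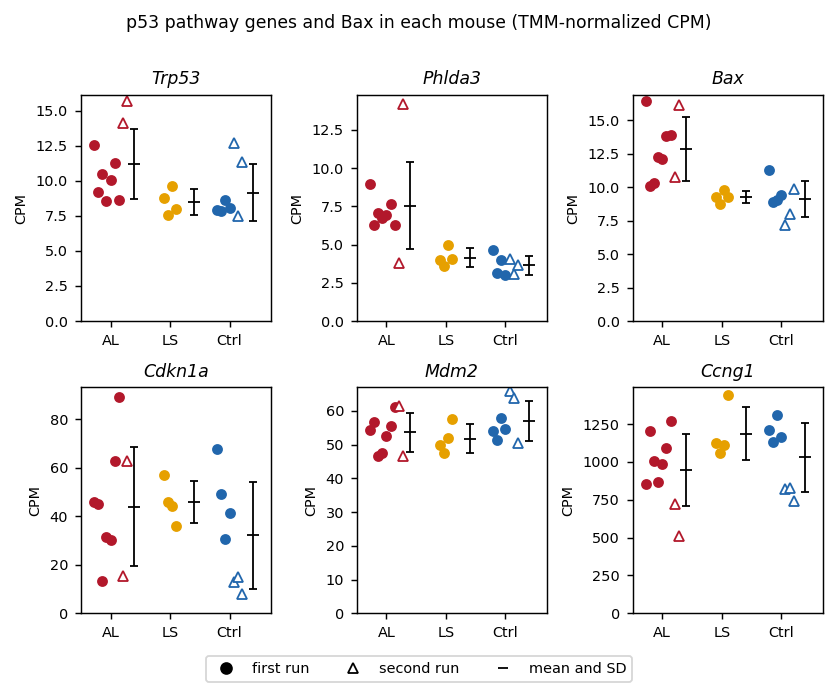
CPM of the 5 p53 pathway genes and Bax in each mouse by group, filled circles for the first run and open triangles for the second, with the group mean and SD beside them. Phlda3 of 8 of the 9 AL mice lies above all LS and Ctrl mice, and the Cdkn1a values of AL mice spread from 13.4 to 89.0 CPM across those of the other groups.

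The AL minus Ctrl difference was also compared between the sequencing runs (7 AL and 4 Ctrl mice against 2 AL and 3 Ctrl mice) by a group-by-run interaction. It passed FDR under 0.05 for 2 members, against 0.684% of all genes tested. Tnfsf10 had a log2FC of 0.91 in the first run and -0.9998 in the second, a difference of -1.91 (SE 0.360, FDR 0.0251). In the first run it was at 8.74 to 18.6 CPM in AL and 5.82 to 8.90 CPM in Ctrl mice, and in the second at 7.06 and 9.36 CPM in AL and 12.2 to 22.1 CPM in Ctrl mice. Casp1 had a log2FC of 0.41 and -1.17, a difference of -1.58 (SE 0.297, FDR 0.0251). The AL mice of the second run were at 1.42 and 2.32 CPM and the Ctrl mice of that run at 3.69 to 4.72 CPM. No member passed without Ctrl5, 1 passed without Ctrl6 and 5 passed without AL8.

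The same direction was seen in both runs for 27 of the 40 members, against 64.9% of all genes tested, and these include Phlda3 (0.97 and 1.34), Bax (0.40 and 0.69), Pycard (0.46 and 0.69) and Trp53 (0.33 and 0.50). An unadjusted interaction p under 0.05 was seen for 10 of the 40, against 15.2% of all genes, including Mlkl (0.69 and -0.70), Casp12 (0.55 and -0.44), Bcl2 (-0.13 and -1.07), Cdkn1a (-0.05 and 1.73) and Il1b (-1.04 and 2.81). Run, depth and the mice sequenced in it cannot be told apart.

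**Figure D5:**
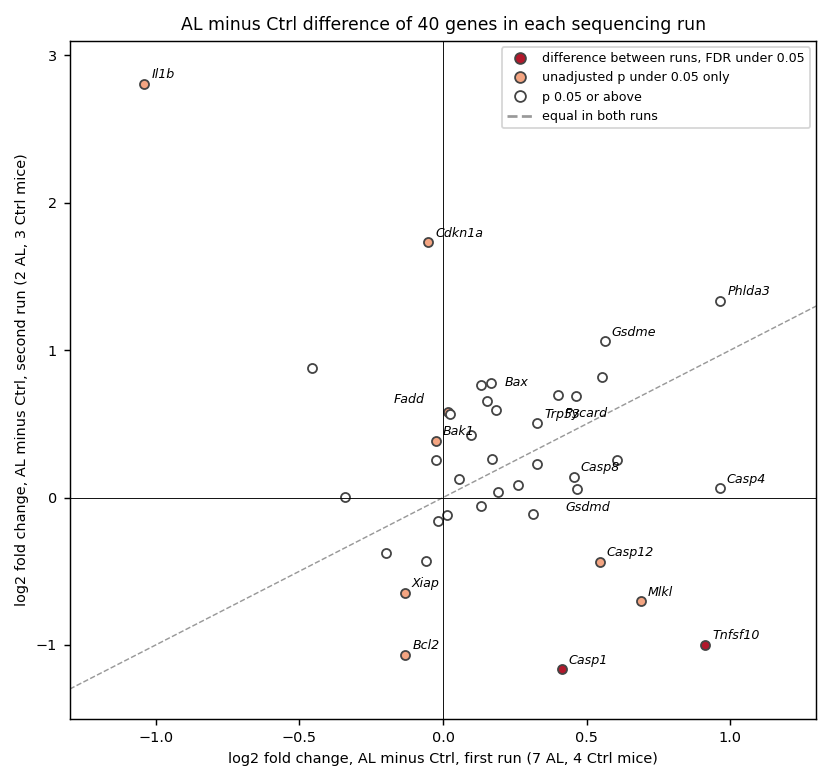
Log2 fold change AL minus Ctrl of the 40 tested genes in the first run (horizontal axis) and the second run (vertical axis), with a dashed line where both are equal. Tnfsf10 and Casp1 (dark red) differ between the runs at FDR under 0.05 and lie at the lower right, while Phlda3, Gsdme, Bax, Pycard and Trp53 lie in the upper right.

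In the first run alone, 11 members rose against Ctrl and none fell, against 11.0% and 14.6% of the 14288 genes tested. Tnfsf10 (log2FC 0.90, SE 0.194, FDR 0.00545), Casp12 (0.54, SE 0.123, FDR 0.00718) and Mlkl (0.68, SE 0.194, FDR 0.0204) joined those that passed in both runs together, and Gsdme (FDR 0.115) and Xiap did not pass. Against LS 16 members rose and none fell, against 15.6% and 16.9% of all genes. They added Casp1 (0.79, SE 0.147, FDR 0.00179), Bbc3 (0.68, FDR 0.0200), Aim2 (0.59, FDR 0.0360) and Il18 (0.77, FDR 0.0424), besides Tnfrsf1a, Tnfrsf10b and Ripk1. In these mice Casp12 was at 15.6 to 20.3 CPM in AL, 9.79 to 13.8 CPM in Ctrl and 7.09 to 11.5 CPM in LS mice, with AL apart from both.

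Other genes of the same pathways were counted from lists of related genes. Over all genes tested, 10.7% rose and 15.4% fell against Ctrl, and 9.78% rose and 13.6% fell against LS. The median log2FC of all genes was 0.01 in both comparisons. Called higher were 4.1% of all genes against Ctrl and 5.86% against LS, and called lower 3.71% and 3.03%. Of 30 other apoptosis genes, 3 rose and 3 fell against Ctrl (median log2FC 0.14). Traf1, a TNF receptor adaptor (1.06, SE 0.212, FDR 0.00171), and Bok, a BAX relative (0.92, SE 0.266, FDR 0.0162), were the ones called. Against LS 5 rose and 3 fell (median 0.12). Of 12 other necroptosis genes, 2 rose and 1 fell against Ctrl and none was called (median -0.0015), and 4 rose and 2 fell against LS (median -0.03), where Zbp1, the sensor of Z-form nucleic acids that activates RIPK3, was called with a log2FC of 1.80 (SE 0.453, FDR 0.00831). Zbp1 was named after its value was seen.

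Of 22 other inflammasome genes, 18 were tested, and 4 rose and 1 fell against Ctrl (median 0.08). The same counts were found against LS (median 0.24). Beside both lists of this paragraph, 10.7% of all genes rose and 15.4% fell against Ctrl, and 9.78% and 13.6% against LS. Those called against Ctrl were Il18r1, a chain of the interleukin-18 receptor (1.03, SE 0.253, FDR 0.00642), Pstpip1, a binding partner of pyrin (0.76, SE 0.195, FDR 0.00819), and Il1rn, the interleukin-1 receptor antagonist (1.55, SE 0.416, FDR 0.0112). Of 19 other p53 targets, 2 rose and 1 fell in either comparison (medians 0.04 and -0.03). Rrm2b, a ribonucleotide reductase subunit, fell by 0.69 on the log2 scale against Ctrl (SE 0.0996, FDR 0.000228), and Pidd1, a scaffold of caspase-2, rose by 0.69 (SE 0.213, FDR 0.0236). No gene of these 4 lists passed in LS against Ctrl.

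Interferon response genes moved beside the members, several of which (Casp4, Casp1, Mlkl, Tnfsf10 and Aim2 among them) are known to be inducible by interferon. Of 18 such genes, 7 rose against Ctrl (median log2FC 0.80) and 15 against LS (median 1.44), beside 10.7% and 9.78% of all genes. The median of the 18 in LS against Ctrl was -0.66, with none that passed. Their summed level was 367 to 621 CPM in AL mice of the first run, 205 and 238 CPM in AL9 and AL8, 146 to 329 CPM in LS mice, 177 to 389 CPM in Ctrl mice of the first run and 291 to 427 CPM in those of the second. In the first run every AL mouse was above every LS mouse and above all Ctrl mice but Ctrl1, and in the second run both AL mice were below the Ctrl mice. Whether the members moved with this response was not tested.

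Markers of other cell types were counted as well. Beside them, 10.7% of all genes rose and 15.4% fell against Ctrl, and 9.78% rose and 13.6% fell against LS. Of 10 macrophage markers, Lyz2 and C1qb rose against Ctrl and none passed against LS, with sums of 195 to 748 CPM in AL, 348 to 410 CPM in LS and 232 to 473 CPM in Ctrl mice. Of the 8 cardiomyocyte markers, Myh6 and Pln fell in both comparisons (log2FC -0.33 and -0.44 against Ctrl). No marker of neutrophils (7 of 8 tested), T and NK cells (10), fibroblasts (7) or endothelial cells (6) passed, and of 6 B cell markers only Cd22 rose, against LS. The neutrophil marker Ly6g had a median of 0 in AL and Ctrl mice. The part of these cells in the differences above was not tested.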

How the data were processed

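RNA of the heart apex of 20 mice (9 AL, 4 LS, 7 Ctrl) was measured by stranded mRNA sequencing. The deposited values are estimated counts per gene, which the authors made with the nf-core/rnaseq pipeline (STAR alignment to GRCm38, Salmon quantification), without normalization or adjustment for the 2 sequencing runs. Of these values 14.2% were not whole, and all were rounded. Gene lengths and coordinates were taken from GENCODE M21 (GRCm38), which is not the annotation release that the study names. Groups and runs (labelled as batches) were taken from the sample labels, which give no animal number, litter or day. Each library was treated as 1 mouse, and p-values measure the spread between these libraries. The level of 3 counts given as a floor covers counting error only.

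Genes with low counts were removed with filterByExpr (minimum count 10), TMM factors were computed, and group and run were fitted together with glmQLFit and glmQLFTest in edgeR 4.0.16 (R 4.3.3). P-values were adjusted over all genes by Benjamini-Hochberg. A gene passed at an FDR under 0.05 and was called when its absolute log2FC also reached 0.58. The difference between runs was an interaction term fitted to AL and Ctrl mice. The scripts were checked on simulated data.

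Members and gene lists were chosen with earlier results of these data known. All 41 members are named, those that passed are given by mouse, and in the lists of related genes the 3 with the lowest FDR among those called against Ctrl are named. Alternatives were RLE factors, other count filters, DESeq2 1.42.0, no run term, ComBat-seq (sva 3.50.0), the first run alone, a replicate block and each mouse left out.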

Additional observations from a re-analysis of the deposited data

Results flagged for a closer look

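Within the groups of AL, LS and Ctrl mice, 123 sets of values were examined for a mouse far from the others, and 8 had one, where chance alone would mark about 1 in 20. AL9 was apart in 4 of them, high for Tnfrsf1a (60.6 CPM, next AL1 at 38.6 CPM), Birc3 (11.2 CPM, next AL8 at 8.65 CPM) and Bid (2.93 CPM, next AL6 at 1.23 CPM), and low for Birc2 (25.6 CPM, next AL3 at 31.4 CPM). AL8 was low for Nlrp3 (0.119 CPM, next AL3 at 0.473 CPM), which is under the 0.356 CPM that 3 counts come to in that library, and for Casp4 (1.54 CPM, next AL9 at 3.36 CPM). Ctrl4 was high for Ripk1 (13.6 CPM, next Ctrl7 at 10.8 CPM) and for Il1b (2.79 CPM, next Ctrl7 at 0.615 CPM).

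Tnfsf10 and Casp1 stood out because their AL minus Ctrl difference was not the same in the 2 sequencing runs. The log2FC of the second run minus that of the first was -1.91 for Tnfsf10 and -1.58 for Casp1 (edgeR interaction test, FDR 0.0251 for each). Without Ctrl5, neither gene passed.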

How the results depend on the processing

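No member that passed changed direction under any alternative, and over all alternatives 428 values of such members kept their side of the threshold and 122 did not. Against Ctrl, the 10 members that passed became 5 without the run term, 1 on ComBat-seq counts and 2 without the 5 mice of highest hepatocyte marker sums, and the 3 called became 1 on ComBat-seq counts and 5 in the first run alone. Against LS, the 9 that passed became 17 with DESeq2 (16 higher and 1 lower), 1 on ComBat-seq counts, 16 in the first run alone and 2 without the 5 mice, and the 7 called became 11, 1, 12 and 2. ComBat-seq left Phlda3 against Ctrl (log2FC 0.99) and Tnfsf10 against LS (1.02). The difference between runs, found for 2 members, was found for 5 with DESeq2 and 0 without the 5 mice. The cause of these shifts was not tested. The share of all genes that passed or were called was computed for the first run alone, and for none of the other alternatives. In that run 3.81% of all genes were called higher and 4% lower against Ctrl, where 5 members were called. Against LS 7.94% of all genes were called higher and 3.53% lower, where 12 members were called. With each mouse left out in turn, against Ctrl 5 to 10 passed and 1 to 3 were called, against LS 5 to 14 passed and 3 to 11 were called, and 0 to 5 differed between runs. No member passed in LS against Ctrl under any alternative. Depth limits the low genes (Fasl, Gsdme, Nlrp3, Il1b, Il18, Pmaip1) in the second run.

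Replicate numbers recur between groups. Deviations from the mean of group and run correlated at -0.154 to 0.0594 over 7 AL and Ctrl pairs of the same number. The correlations were -0.0745 to 0.231 over 4 AL and LS pairs and 0.0582 to 0.220 over 4 LS and Ctrl pairs. They were above 0.1 for 1 AL and LS pair and 2 LS and Ctrl pairs. Mice of unlike number were not compared, and the numbers were not taken as pairs. With the number as a replicate block, 6 members passed and 5 were called against Ctrl. Of these 6, 3 were among the 10 of the fit without the block (Aim2, Casp4 and Phlda3) and 3 were not (Tnfsf10, Mlkl and Casp12), while the other 7, Bax (FDR 0.0696), Pycard (0.104), Trp53 (0.163), Casp8, Xiap, Gsdmd and Gsdme, did not pass. Against LS 12 passed, the 9 of the fit without the block among them, and 9 were called, and 0 differed between runs.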
